A study of Mus musculus with 9 samples.

Results

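The genes described here are p53 and a set of its target genes and regulators, 35 by symbol, measured on 9 Affymetrix arrays of mouse embryonic fibroblasts. A gene was included when a probe set of the array, a group of short probes read as a single signal, carried that symbol alone, and each gene was read at its probe set of highest mean signal. That held for 32 of the 35 genes, out of 18193 genes named on the array. Trp53, which encodes p53 itself, and its targets Bax and Gdf15 had no such probe set and were not analysed here, so the level of p53 is not known from these arrays. The 32 genes had 63 probe sets, of which 53 were bright enough to test, and all 32 were among the 10177 genes tested. For Perp, Pmaip1 and Ddit4l the mean signal of the wild-type line was below the minimum of 100, so these 3 entered the test through the knockout line alone.

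The arrays come from 2 fibroblast lines, both derived from E13.5 embryos and both immortalised spontaneously in culture. The knockout line lacks Suv420h1, a methyltransferase of histone H4 whose current symbol is Kmt5b, and is called the null line here. It was measured after add-back of a Suv420h1-GFP fusion (1 array, the reconstituted line) and as the null group, untransduced and with GFP (2 arrays). The wild-type line was transduced with lentivirus to express PREX2, an exchange factor for the GTPase Rac. Its arrays are truncated PREX2 ending at the stop codons K278*, E824* and Q1430* (3 arrays), full-length PREX2 (1 array), and control vector, GFP and LacZ (2 arrays). Each genotype is a single line, so loss of Suv420h1 and any other difference between the lines cannot be told apart. No construct was repeated and the labels name no separate cultures; the spread behind each p-value is that between arrays, which may be technical, and their small number limits the precision. In bulk RNA, fewer cells of a type and less RNA per cell cannot be told apart.

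The transcription factor p53 is kept scarce by the ubiquitin ligase Mdm2 and its partner Mdm4. When stress signals from DNA damage kinases, or the Arf product of Cdkn2a, weaken that control, p53 binds paired half-sites in DNA and switches on genes of cell-cycle arrest, apoptosis, DNA repair and metabolism. Mdm2 is itself a target, which closes a negative feedback loop. Fibroblasts from mouse embryos stop dividing in culture through this pathway, and spontaneously immortalised lines often carry a lesion in Trp53 or Cdkn2a; the labels do not state the p53 status of these lines.

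Promoter sequences from RefSeq (GRCm38.p6), each running from 250 bases before to 50 after an annotated gene start, were available for 24 of the 32 genes. They were searched for the p53 half-site consensus, a run of 10 bases with purines, a central C and G around A or T, and pyrimidines, which reads alike on both strands. At least 1 match was found for 10 of the 24 genes (41.7%), against 9.55% of the 27025 genes with a promoter in the table. By promoter, since some genes have several starts, the share was 34.4% against 8.36%. The overlapping promoters of Aen hold the same site, which is counted at each in the share by promoter. The 10 genes were Aen, Ccng1, Cdkn1a, Ddit4l, Ei24, Gtse1, Mdm2, Polk, Ppm1d and Sesn1. A pair of matches no more than 13 bases apart occurred in Cdkn1a alone among these genes, against 20 genes (0.074%) in the whole table. The windows below are shown because they belong to Cdkn1a, the best known p53 target, and to the 6 genes with a match that were higher in the null line; the capitals mark the half-sites. The Cdkn1a window is chr17:29090886-29090957 (plus strand), and its half-sites begin 73 and 51 bases before the upstream of its 2 annotated starts, which is 2790 bases upstream of the other.
Cdkn1a: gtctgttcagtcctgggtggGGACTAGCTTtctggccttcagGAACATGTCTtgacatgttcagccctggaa
Mdm2: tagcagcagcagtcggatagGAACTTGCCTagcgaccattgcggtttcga
Ddit4l: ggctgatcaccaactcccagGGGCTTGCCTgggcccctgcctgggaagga
Polk: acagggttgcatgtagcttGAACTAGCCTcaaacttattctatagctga
Ccng1: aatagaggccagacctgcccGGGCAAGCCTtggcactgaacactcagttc
Ei24: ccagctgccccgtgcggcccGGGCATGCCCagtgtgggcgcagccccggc
Gtse1: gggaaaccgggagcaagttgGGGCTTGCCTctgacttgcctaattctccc

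The Mdm2 window is chr10:117710915-117710964 (minus strand) and its half-site begins 186 bases before the start. The Ddit4l window is chr3:137623562-137623611 (plus) with the half-site 90 bases before the start, and the Polk window is chr13:96519389-96519437 (minus) with the half-site 231 bases before the downstream of 2 annotated starts, which is 23392 bases from the upstream one, where no match was found. The Ccng1 window is chr11:40755442-40755491 (minus), 185 bases before the start, and the Ei24 window is chr9:36797315-36797364 (minus), 10 bases before. In Gtse1 (chr15:85859935-85859984, plus) the match begins 10 bases after the downstream of 2 annotated starts, 239 bases from the upstream one, whose promoter held none. A match is a description of the letters in these windows and shows no binding. Only exact matches were searched for, so near matches are not marked. In the Cdkn1a window the 10 bases directly after the second marked half-site differ from the consensus only at their first base.

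**Figure D1:**
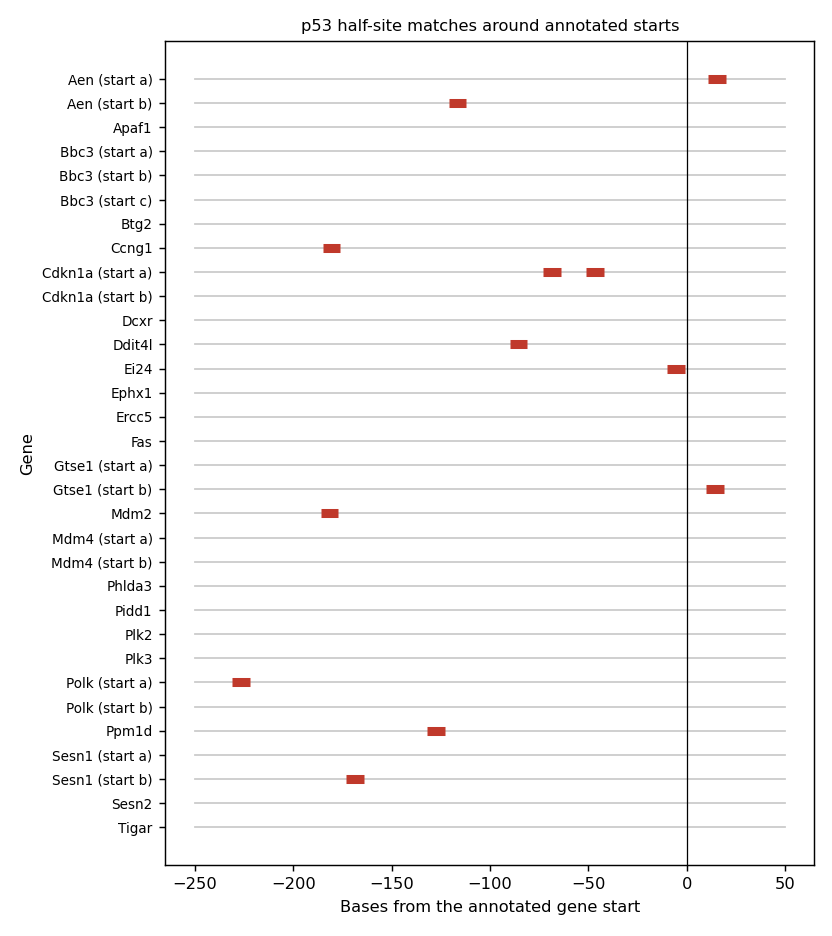
Position of p53 half-site matches (red) in the promoters available for 24 of the genes; the horizontal axis is the distance in bases from the annotated start and each grey line is 1 promoter. Exact matches occur in 11 of the 32 promoters, at varied distances, with the same Aen site shown at each of its starts. The Cdkn1a pair is the only place where a pair of exact matches stands close together.

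The null group was compared with wild-type control vector first. On the scale of log2(signal + 25), 9 of the 32 genes rose in the null group and 0 fell (limma, adjusted p below 0.05), while 10.2% of all genes tested were called higher and 10.0% lower. The 9 were Perp, Pmaip1, Ddit4l, Btg2, Plk2, Dcxr, Ercc5, Polk and Apaf1, which act in apoptosis, growth arrest, metabolism and repair. Perp, Pmaip1 and Ddit4l entered the test through the null line alone, so a fall could not have been seen for them. The 32 genes were chosen with earlier results of these data known, and the set was not tested as such. The median change of the 32 genes was 0.45, beside -0.027 for all genes tested, and 28 of the 32 changes were positive. Without adjustment 15 genes were higher and 2 lower (Tigar and Bbc3) below 0.05, beside 1715 and 1818 of the 10177 genes. The arrays of the groups did not overlap for 17 genes that were higher, beside 29.0% of all genes, and for 2 that were lower, beside 31.8%. Of the alternatives that follow, the fit without both GFP and K278* was added after seeing the data and leaves LacZ as its only control array. The count of 9 became 5 without either null array, 14 without the GFP control array, 11 without the LacZ control array, and 17 when both GFP and K278* were dropped from the wild-type line.

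The second comparison set all 3 null-line arrays against all 6 wild-type-line arrays, so that the spread includes the constructs. In it 17 genes rose and 2 fell, beside 20.7% of all genes called higher and 23.2% called lower. The 17 are the same 9 genes with Mdm2, Mdm4, Ccng1, Zmat3, Phlda3, Gtse1, Plk3 and Ei24, and the 2 that fell were Bbc3 and Tigar. Here too a fall could not have been seen for Perp, Pmaip1 and Ddit4l. The median change was 0.54, beside -0.024 for all genes. The 3 null-line arrays lay above all 6 wild-type-line arrays for 14 genes, beside 20.3% of all genes, and below them for 2, beside 21.1%. Both comparisons use the null arrays and the control arrays, so they are not independent. Of the 10 genes with a half-site match 6 were called higher and 0 lower, and of the 14 genes whose promoters held none 8 were higher and 2 lower.

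**Figure D2:**
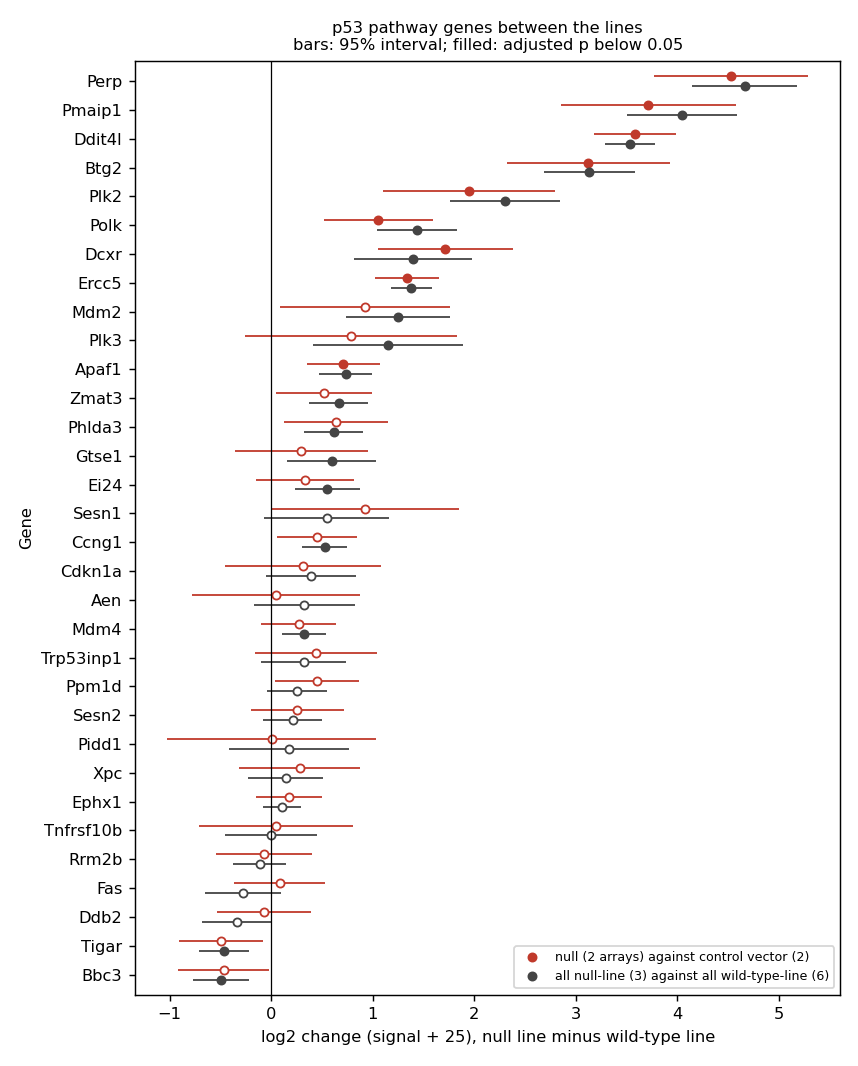
Change of each of the 32 genes between the lines, in log2(signal + 25), null line minus wild-type line; red points compare the null group with control vector, dark points all null-line with all wild-type-line arrays, bars are 95% intervals and filled points passed. Perp, Pmaip1, Ddit4l and Btg2 lie above 3, most others lie between 0 and 1.5, and Bbc3 and Tigar are the only filled points below 0.

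Among the regulators of p53, Mdm2, the ligase that marks p53 for destruction, read 4441 (untransduced), 3560.0 (GFP) and 4816 (Suv420h1-GFP) on the null-line arrays, against 1305 at the lowest, 1542 at the median and 2843 at the highest of the wild-type-line arrays. The lines did not overlap, and within the wild-type line the GFP array and then K278* (2372) were high. Against control vector the change of 0.93 (SE 0.36, 2 arrays in each group) missed the threshold (adjusted p = 0.113). At its second tested probe set Mdm2 rose by 1.22 (adjusted p = 0.0311). Over the lines Mdm2 rose by 1.25 (SE 0.23, 3 against 6 arrays, adjusted p = 0.0014) and by 1.52 at the second probe set (adjusted p = 0.000188). The result against control vector depends on the control array used. It was 1.38 (adjusted p = 0.0355) without GFP and 0.48 (adjusted p = 0.337) without LacZ, with the remaining control array assumed to vary like the other groups.

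Mdm4, which binds p53 and blocks its activity, read 761, 865 and 792 on the untransduced, GFP and Suv420h1-GFP null-line arrays, against 559, 658 and 699 at the lowest, median and highest wild-type-line array. The groups were close without overlapping. Mdm4 differed by 0.27 (SE 0.16, adjusted p = 0.27) from control vector and rose by 0.32 (SE 0.099, adjusted p = 0.0222) over the lines, a call lost without the null GFP array (adjusted p = 0.101) or the reconstituted array (adjusted p = 0.0538). Its second probe set differed by 0.088 (adjusted p = 0.717). Ccng1, which encodes cyclin G1, a partner in the Mdm2 loop, rose over the lines by 0.53 (SE 0.10, adjusted p = 0.00166), and its mean signal was 23007 in the null line and 16041 in the wild-type line. Ppm1d, the phosphatase Wip1 that dampens the damage response, differed by 0.25 (adjusted p = 0.151) over the lines at its brightest probe set and rose by 0.36 (adjusted p = 0.0433) at the other. Without the reconstituted array the brightest passed too (0.41, adjusted p = 0.0352).

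Cdkn1a encodes p21, the inhibitor of cyclin-dependent kinases through which p53 stops the cell cycle. It read 5019, 5131 and 4692 on the untransduced, GFP and Suv420h1-GFP null-line arrays. In the wild-type line it read 5292 (K278*), 3177 (E824*), 2883 (Q1430*), 3454 (full-length PREX2), 5336 (GFP) and 3122 (LacZ). The wild-type GFP and K278* arrays thus stood with or above the null line, and the other 4 below it. Cdkn1a differed by 0.31 from control vector (SE 0.33, 95% interval -0.46 to 1.08, adjusted p = 0.546) and by 0.40 over the lines (SE 0.20, interval -0.046 to 0.84, adjusted p = 0.134). At its second probe set the changes were 0.057 (adjusted p = 0.945) and 0.20 (adjusted p = 0.604). The value against control vector was -0.072 without LacZ and 0.70 (adjusted p = 0.191) without GFP. Over the lines Cdkn1a passed without the wild-type GFP array (0.50, adjusted p = 0.025), without K278* (0.49, adjusted p = 0.0469), and without both (0.65, adjusted p = 2.33e-05), alternatives of which the last was chosen after seeing the data.

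Of the other growth-arrest genes, Btg2, an antiproliferative protein that acts on transcript decay, read 5641, 7297 and 5916 on the untransduced, GFP and Suv420h1-GFP null-line arrays, against 508, 674 and 1110 at the lowest, median and highest wild-type-line array. Every null-line array was far above every wild-type-line array, of which K278* was the highest. Btg2 rose by 3.12 (SE 0.34, adjusted p = 0.00136) against control vector and by 3.13 (SE 0.20, adjusted p = 9.78e-07) over the lines. Plk2, a polo-like kinase, read 13773, 14340 and 15141 in the null line, against 2035, 2674 and 5162 at the lowest, median and highest wild-type-line array. The groups were apart, with the wild-type GFP array highest in its line. Plk2 rose by 1.95 (SE 0.36, adjusted p = 0.0109) against control vector and by 2.31 (SE 0.25, adjusted p = 3.55e-05) over the lines. Its related kinase Plk3 (mean signals 274 and 120) rose over the lines by 1.15 (adjusted p = 0.0168), though the wild-type GFP array, at 261, overlapped the null line. Gtse1, which is expressed in G2 and restrains p53, rose over the lines by 0.60 (adjusted p = 0.0307), also with overlap. Without the null GFP array Plk3 missed the threshold (adjusted p = 0.0772), and Gtse1 missed it without the untransduced null, reconstituted, full-length PREX2 or Q1430* array (adjusted p of 0.057 to 0.125).

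**Figure D3:**
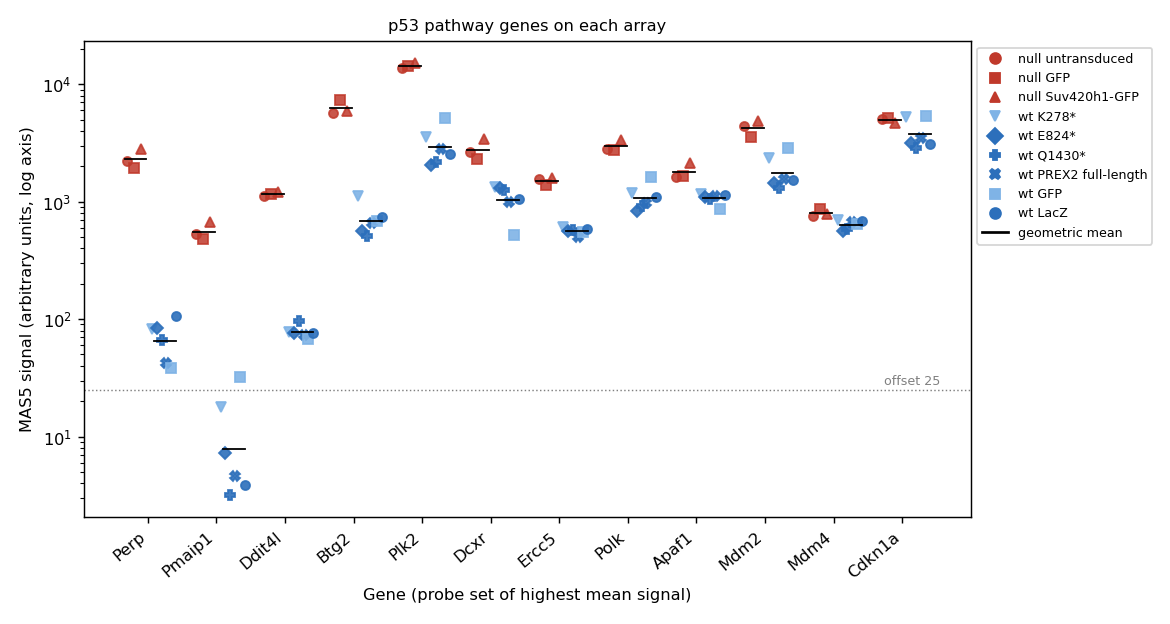
Signal on each of the 9 arrays, on a log axis, for the 9 genes that rose against control vector and for Mdm2, Mdm4 and Cdkn1a; red marks are null-line arrays, blue marks wild-type-line arrays (pale for GFP and K278*), and black lines geometric means. The lines are apart for 11 of the 12 genes, and for Cdkn1a the 2 pale marks stand at the level of the null line.

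The apoptosis genes moved in different directions. Perp, a membrane protein of the desmosome that promotes apoptosis, read 2223, 1946 and 2831 on the untransduced, GFP and Suv420h1-GFP null-line arrays, against 38.1, 74.5 and 107 at the lowest, median and highest wild-type-line array. The lines were far apart. Perp rose by 4.53 (SE 0.32, adjusted p = 0.000244) against control vector and by 4.66 (SE 0.23, adjusted p = 1.7e-07) over the lines; against control vector the size was 4.91 with an offset of 5 and 3.69 with an offset of 100. Perp is abundant in epithelia. Of 8 epithelial markers, 5 to 7 were below a signal of 100 on the null-line arrays and 6 on each wild-type-line array, and their summed signal was 598 to 683 in the null line and 634 to 762 in the wild-type line. Krt14, Krt18, Cdh1 and Dsp were below 60 on all 9 arrays, and Dsp read 38.0 to 47.8 in the null line and 10.2 to 26.7 in the wild-type line. Krt5 and Krt8 were highest on the reconstituted array, at 103 and 104. On the other arrays they read 35.1 to 91.5 and 20.6 to 76.8. Of the 2 markers bright enough to test, Krt19 fell in the null group (-1.70, adjusted p = 0.00879) and Epcam differed by 0.56 (adjusted p = 0.249), with 255 to 432 in the null line and 162 to 301 in the wild-type line. Krt19 read 46.65 to 89.15 in the null line, below the minimum of 100. It entered the test through the wild-type line alone, so a rise could not have been seen for it.

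Pmaip1, the BH3-only protein Noxa, read 530.4, 485 and 668 on the untransduced, GFP and Suv420h1-GFP null-line arrays, against 3.16, 5.99 and 31.9 at the lowest, median and highest wild-type-line array. The wild-type signals lay near or under the offset of 25, where they carry no order. Pmaip1 rose by 3.72 (SE 0.37, adjusted p = 0.000882) against control vector and by 4.04 (SE 0.25, adjusted p = 6.23e-07) over the lines; against control vector the size was 4.82 with an offset of 5 and 2.38 with an offset of 100. Apaf1, the scaffold of the apoptosome, read 1632, 1650 and 2128 in the null line, against 874, 1109 and 1160 at the lowest, median and highest wild-type-line array. The lines did not overlap, and the wild-type GFP array was low. Apaf1 rose by 0.71 (SE 0.15, adjusted p = 0.0188) against control vector and by 0.73 (SE 0.12, adjusted p = 0.000562) over the lines, and its second probe set differed by 0.36 (adjusted p = 0.328) against control vector and rose by 0.52 (adjusted p = 0.0241) over the lines. That second probe set averaged 99.7 in the wild-type line, just below the minimum of 100. It thus entered the test through the null line alone.

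Bbc3, the BH3-only protein Puma, went the other way. It read 118, 120.0 and 132 on the untransduced, GFP and Suv420h1-GFP null-line arrays, against 162, 179 and 212 at the lowest, median and highest wild-type-line array. All null-line arrays were below all wild-type-line arrays. Bbc3 fell by 0.50 over the lines (SE 0.12, adjusted p = 0.00805) and differed by -0.47 from control vector (SE 0.19, adjusted p = 0.131). A further 3 genes of this group rose over the lines. They were Zmat3, an RNA-binding protein (0.67, adjusted p = 0.00196), Phlda3, an inhibitor of Akt (0.62, adjusted p = 0.00331), and Ei24, a membrane protein of the endoplasmic reticulum (0.55, adjusted p = 0.0101). Without the GFP control array these 3 also passed against control vector.

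The death receptors and remaining apoptosis genes showed no call at their brightest probe sets. Fas, the receptor of Fas ligand, read 512, 556 and 466 on the untransduced, GFP and Suv420h1-GFP null-line arrays, against 412, 657 and 758 at the lowest, median and highest wild-type-line array. The lines overlapped, with the wild-type GFP array the lowest of all 9. Fas differed by -0.28 over the lines (adjusted p = 0.211) and by -0.39 without that array, which passed (adjusted p = 0.0101). Tnfrsf10b, the TRAIL receptor, differed by 0.001 (adjusted p = 0.997), whereas its dimmer probe set rose by 0.63 (adjusted p = 0.00945). The nuclease Aen differed by 0.33 (adjusted p = 0.269), rose at its second probe set by 0.58 (adjusted p = 0.0436) and differed at its dimmest by 0.20 (adjusted p = 0.461). Pidd1, of the PIDDosome, differed by 0.18 and Trp53inp1, an autophagy and stress protein, by 0.32, neither passing (adjusted p = 0.629 and 0.199). Without the wild-type GFP array Aen passed over the lines (0.48, adjusted p = 0.0155), and without LacZ Trp53inp1 passed against control vector (0.84, adjusted p = 0.0218).

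Of the stress and metabolism genes, Ddit4l, an inhibitor of mTOR signalling, read 1125, 1154 and 1216 on the untransduced, GFP and Suv420h1-GFP null-line arrays, against 68.2, 76.6 and 96.1 at the lowest, median and highest wild-type-line array. Its values varied little within either line. Ddit4l rose by 3.58 (SE 0.17, adjusted p = 5.05e-05) against control vector and by 3.53 (SE 0.11, adjusted p = 5.53e-09) over the lines. Dcxr, a dicarbonyl and xylulose reductase, read 2669, 2322 and 3392 in the null line, against 522, 1148 and 1341 at the lowest, median and highest wild-type-line array. The lines were apart, and the wild-type GFP array was well below the rest of its line. Dcxr rose by 1.71 (SE 0.28, adjusted p = 0.00704) against control vector and by 1.40 (SE 0.26, adjusted p = 0.00148) over the lines.

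Tigar, which lowers fructose-2,6-bisphosphate, was low in the null line. It read 179.5, 190.1 and 179 on the untransduced, GFP and Suv420h1-GFP null-line arrays, against 228, 262 and 299.7 at the lowest, median and highest wild-type-line array, without overlap. Tigar fell by 0.47 over the lines (SE 0.11, adjusted p = 0.00615) and differed by -0.50 from control vector (SE 0.18, adjusted p = 0.0909). The sestrin Sesn1, an inhibitor of mTORC1, differed by 0.55 over the lines (adjusted p = 0.139), and its wild-type-line signals spanned 666 (GFP) to 2059 (E824*). Against control vector Sesn1 differed by 0.93 (adjusted p = 0.143), and by 1.53 without LacZ, which passed (adjusted p = 0.0119). Sesn2 differed by 0.21 (adjusted p = 0.218), and the epoxide hydrolase Ephx1 by 0.11 (SE 0.084, adjusted p = 0.316).

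Of the repair genes, Ercc5, the XPG endonuclease of nucleotide excision repair, read 1564, 1374 and 1575 on the untransduced, GFP and Suv420h1-GFP null-line arrays, against 502, 568 and 606 at the lowest, median and highest wild-type-line array. The lines were far apart and both were tight. Ercc5 rose by 1.34 (SE 0.14, adjusted p = 0.000958) against control vector and by 1.38 (SE 0.090, adjusted p = 1.05e-06) over the lines. Polk, a polymerase that copies past damaged bases, read 2824, 2749 and 3330 in the null line, against 831, 1028 and 1619 at the lowest, median and highest wild-type-line array. The lines did not overlap and the wild-type GFP array was the highest of its line. Polk rose by 1.06 (SE 0.23, adjusted p = 0.0195) against control vector and by 1.44 (SE 0.18, adjusted p = 0.000109) over the lines, and its second probe set differed by 0.69 (adjusted p = 0.0573) and rose by 0.95 (adjusted p = 0.000525).

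The damage sensors of the same pathway did not share that change. Ddb2, which recognises ultraviolet lesions, differed by -0.34 over the lines (adjusted p = 0.0981), and fell by 0.47 at its dimmer probe set (adjusted p = 0.00974) and by 0.42 without the wild-type GFP array (adjusted p = 0.0137). Xpc, its partner in recognition, differed by 0.14 (adjusted p = 0.522) and the ribonucleotide reductase subunit Rrm2b by -0.11 (adjusted p = 0.478). Of the 9 genes that rose against control vector, Plk2, Dcxr, Polk and Apaf1 missed the threshold when either null array was left out (adjusted p of 0.0505 to 0.122), and Perp, Pmaip1, Ddit4l, Btg2 and Ercc5 passed in both cases. With the 4 compared arrays fitted alone, Apaf1 missed it (adjusted p = 0.0777).

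**Figure D4:**
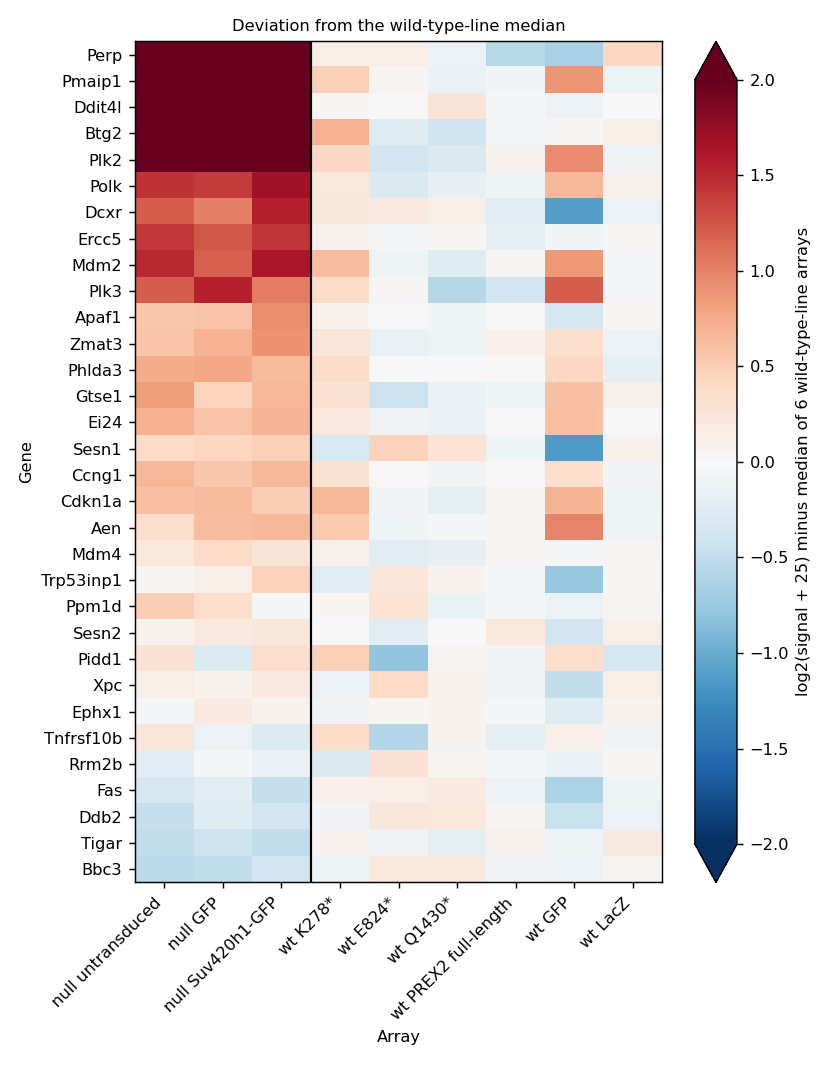
Deviation of each gene (rows) on each array (columns) from the median of the 6 wild-type-line arrays, in log2(signal + 25), with the colour scale ending at 2 in each direction; null-line arrays are left of the black line. The top rows are red on all 3 null-line arrays, and within the wild-type line the GFP column, and K278* in part, show deviations of both signs.

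Add-back of Suv420h1-GFP to the null line set 1 array against the 2 null arrays, with the lone array assumed to vary like the other groups. It asks whether these levels differ once the fusion is added. Whether enzyme activity was restored is not shown here. None of the 32 genes passed, 0 were below 0.05 without adjustment, and 0.0% of all genes were called, with 337 genes of 10177 below an unadjusted 0.05. The reconstituted array lay above both null arrays for 17 genes, beside 39.1% of all genes, and below both for 7, beside 33.5%. The smallest p-values were those of Ppm1d, Apaf1 and Dcxr. Ppm1d read 418 on the reconstituted array, against 615 and 556 on the null arrays (change -0.46, SE 0.22). Apaf1 read 2128 on the reconstituted array, against 1632 and 1650 on the null arrays (0.37, SE 0.19), and Dcxr read 3392 on it, against 2669 and 2322 (0.44, SE 0.35). All 3 had an adjusted p of 1.0. The Ppm1d value lay near its control-vector mean of 422, while Apaf1 and Dcxr lay farther from control vector than the null arrays. The other tested probe set of Ppm1d went the opposite way. It read 450 on the reconstituted array, against 417 and 352 on the null arrays and a control-vector mean of 332.

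For the 9 genes that rose against control vector, the changes on add-back were between -0.12 (Btg2) and 0.44 (Dcxr and Perp). Perp changed by 0.44 with an interval of -0.49 to 1.37, Pmaip1 by 0.38 (-0.67 to 1.43), Ddit4l by 0.092 (-0.40 to 0.58), and Ercc5 by 0.10 (-0.29 to 0.49). The 9 genes were called on the same null arrays, so the comparisons are not independent. Mdm2 changed by 0.28 (interval -0.75 to 1.30), Mdm4 by -0.035 (-0.49 to 0.42) and Cdkn1a by -0.11 (-1.06 to 0.83).

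Truncated PREX2 was compared with control vector in the wild-type line (3 against 2 arrays). None of the 32 genes passed, beside 0.00983% of all genes called higher and 0.0% lower; Dcxr and Fas were the 2 genes below an unadjusted 0.05 (6.25%, beside 2.73% of all genes). Dcxr read 1341, 1316 and 1246 with K278*, E824* and Q1430*, against 522 and 1050 with GFP and LacZ (change 0.79, SE 0.26, adjusted p = 0.844). Fas read 706, 724 and 758 with K278*, E824* and Q1430*, against 412 and 608 with GFP and LacZ (0.52, SE 0.17, adjusted p = 0.844). Ddb2 read 249, 310.4 and 304 with the truncated forms, against 185 and 238 with GFP and LacZ (0.41, SE 0.18, adjusted p = 0.844). At these probe sets the 3 genes did not overlap between the groups, and in each the GFP array was the lowest and LacZ lay between it and the truncated forms. At the dimmer probe set of Ddb2 the groups overlapped. It read 166, 205 and 178 with K278*, E824* and Q1430*, against 191 and 199 with GFP and LacZ. No other gene was non-overlapping, beside 6.66% of all genes higher and 6.44% lower. Without LacZ, with GFP the sole control, Dcxr passed (1.28, adjusted p = 0.0312), and without GFP it differed by 0.30 (adjusted p = 1.0).

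Full-length PREX2 (1 array against 2 control arrays) gave no call either, beside 0.0% of all genes, and 0 genes below an unadjusted 0.05 beside 114 of all genes. Its array lay above both control arrays for 2 genes, beside 23.4% of all genes, and below both for 7, beside 22.5%. The smallest p-values belonged to Plk3, which read 69.2 with full-length PREX2, against 261 and 96.9 with GFP and LacZ (-0.99, SE 0.55), Polk (-0.45, SE 0.28) and Ddb2 (0.34, SE 0.24), each with an adjusted p of 1.0. Truncated against full-length PREX2 (3 arrays against 1) called 0 genes, beside 0.0% of all genes, with 0 below an unadjusted 0.05 beside 105 of all genes. Its smallest p-values were those of Perp (0.60, SE 0.38), Ercc5 (0.20, SE 0.16) and Sesn2 (-0.28, SE 0.23), again at an adjusted p of 1.0. The groups did not overlap for 5 genes that were higher, beside 18.1%, and 2 that were lower, beside 17.4%. Across the 3 PREX2 comparisons Mdm2 changed by -0.33, -0.40 and 0.072, with intervals that all held 0 and reached from -1.42 to 1.04; the comparisons with control vector share its arrays.

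Differences between single wild-type-line arrays were of the size of these group differences. Between GFP and LacZ, the 2 control-vector arrays, 9 genes were more than 1.5-fold higher on GFP (beside 8.64% of all genes) and 5 lower (beside 14.1%); there is no test between single arrays. The GFP array was the highest of its line for 12 genes and the lowest for another 12. High on GFP relative to LacZ were Plk3 (1.23), Aen (1.07), Plk2 (1.01), Mdm2 (0.90) and Cdkn1a (0.77). Pmaip1 is also counted among the 9, but its signals of 31.9 on GFP and 3.86 on LacZ are too near the offset for a firm difference. Low on it were Sesn1 (-1.21), Perp (-1.06), Dcxr (-0.97), Trp53inp1 (-0.79) and Xpc (-0.61). K278* differed from the mean of E824* and Q1430* beyond 1.5-fold for 7 genes that were higher (beside 5.05%), among them Btg2 (1.01), Cdkn1a (0.80), Mdm2 (0.78) and Plk2 (0.76), and for 1 that was lower (Sesn1, -0.67; beside 7.09%).

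**Figure D5:**
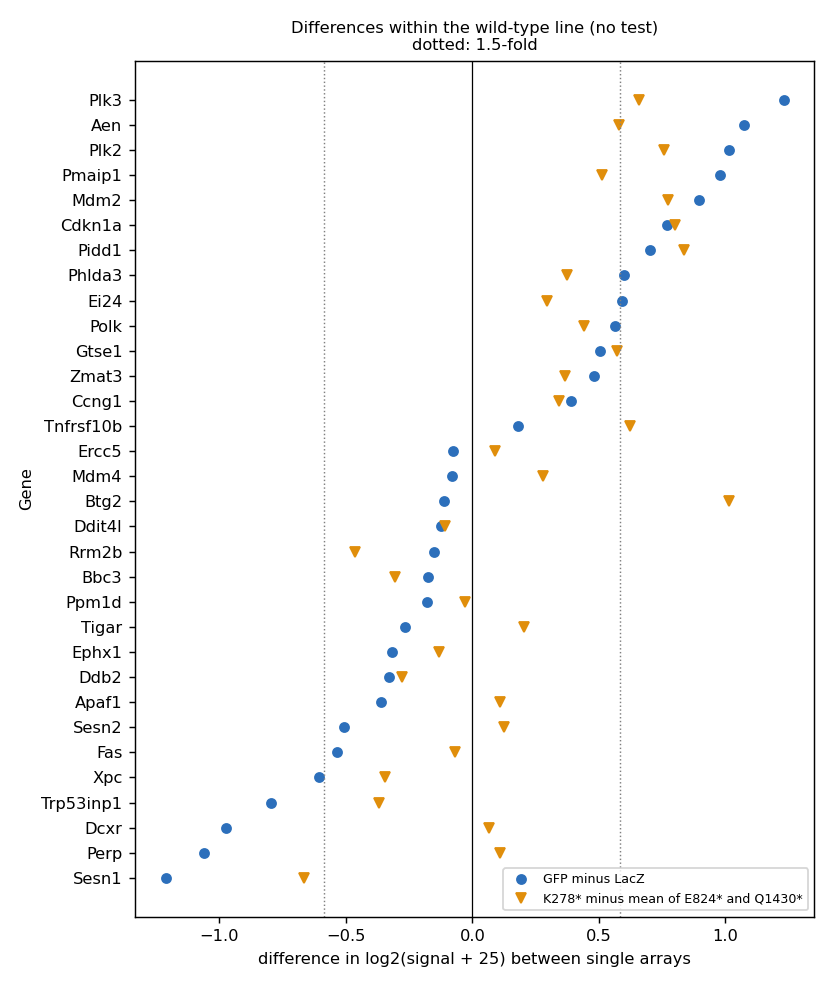
Differences in log2(signal + 25) between single wild-type-line arrays for the 32 genes, GFP minus LacZ (circles) and K278* minus the mean of E824* and Q1430* (triangles); dotted lines mark 1.5-fold. The triangles lie right of 0 for Plk2, Mdm2 and Cdkn1a, as the circles do, and left of 0 for Sesn1.

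Levels of fibroblast markers and of genes of proliferation also differed on those 2 arrays. The mean log2 level of 13 fibroblast markers was 11.8 to 12.1 in the null line, and in the wild-type line it was 11.9 on GFP, 12.4 on K278* and 12.8 to 13.1 on the other 4 arrays. On GFP 7 of the 13 were more than 1.5-fold lower than on LacZ, and 6 were within 1.5-fold. The widest gap was that of decorin (Dcn), a matrix proteoglycan, which read 962 on GFP and 21523 on LacZ, whereas Fbln2 (10217 and 10255) and Vim (38669 and 36435) were close. On K278* 4 of the 13 were lower by that measure than the mean of E824* and Q1430*. In the null group against control vector 1 of the 13 markers rose, the matrix protein gene Fbln2 (0.85, adjusted p = 0.00139), and 1 fell, the surface marker Thy1 (-5.47, adjusted p = 0.000409), and the other 11 did not pass (7.69% in each direction, beside 10.2% and 10.0% of all genes). Thy1 read 11.2, 27.3 and 6.90 in the null line, against 1097 to 3641 in the wild-type line. Over the lines 1 of the 13 rose and 3 fell (7.69% and 23.1%, beside 20.7% and 23.2% of all genes). Those that fell were Thy1, Col3a1 (-0.46, adjusted p = 0.0306) and Col1a2 (-0.27, adjusted p = 0.0424). Summed signals were 118 to 227 and 197 to 603 for 4 endothelial markers, and 927 to 1289 and 701.5 to 1708 for 5 macrophage markers, in the null line and the wild-type line. The endothelial marker Tek, the only 1 of the 4 bright enough to test, fell over the lines (-1.78, adjusted p = 0.0173). It read 43.4 to 91.3 in the null line, 55.0 on the wild-type GFP array and 193 to 488.5 on the rest of that line. Tek entered the test through the wild-type line alone, so a rise could not have been seen for it. The macrophage marker Csf1r fell against control vector (-0.76, adjusted p = 0.0378) and over the lines (-1.04, adjusted p = 0.000475), while Cd68 and Lyz2 passed in neither. The 14 measured genes that p21 is known to repress, mostly of mitosis and replication, had mean log2 levels of 10.4 to 10.6 in the null line, and in the wild-type line 11.0 on GFP, 10.8 on K278* and 10.1 to 10.5 on the other 4. The part of these differences in the p53 target levels was not tested.

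Upstream of p53, 26 genes of its activators, cofactors and ligases were tested. In the null group against control vector 4 rose (15.4%, beside 10.2% of all genes) and 2 fell (7.69%, beside 10.0%). Cdkn2a, which encodes p16Ink4a and the Mdm2 inhibitor Arf, read 3363, 4308 and 3846 on the untransduced, GFP and Suv420h1-GFP null-line arrays, against 0.925 to 15.9 over the wild-type-line arrays. Its wild-type signals were all under the offset, so the change of 6.79 (SE 0.24, adjusted p = 1.18e-05) is set in part by it, and was 8.10 with an offset of 5 and 5.15 with 100. Cdkn2a entered the test through the null line alone, so a fall could not have been seen for it. The probe set does not tell the transcripts of the locus apart here. Of the other members, the ligase Trim24 rose by 0.93 (adjusted p = 0.013), the nuclear-body protein Pml by 0.92 (adjusted p = 0.0108) and the chaperone Daxx by 0.67 (adjusted p = 0.0289). Trim28, a corepressor that works with Mdm2, fell by 0.50 (adjusted p = 0.0209), and the ribosomal protein Rpl11, an Mdm2 inhibitor, fell by 0.42 (adjusted p = 0.0369). Without the untransduced null array 1 rose and 0 fell, and without the null GFP array 2 rose and 0 fell. The Daxx and Rpl11 calls were lost without any 1 of the 4 compared arrays (adjusted p of 0.0549 to 0.184). Over the lines 8 rose and 3 fell (30.8% and 11.5%, beside 20.7% and 23.2% of all genes), and those that rose included the damage kinase Atm (0.62, adjusted p = 0.00104), and the paralogs Trp63 and Trp73 were too dim to test.

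Of 25 further p53 targets tested, 8 rose (32.0%, beside 10.2% of all genes) and 0 fell against control vector, and over the lines 14 rose (56.0%, beside 20.7%) and 2 fell (8.0%, beside 23.2%). The 2 that fell over the lines were Cdkn1b (-1.10, adjusted p = 0.0064) and Tnfaip8 (-0.58, adjusted p = 0.00186). This list was chosen with earlier results of these data known, so it is not independent support for the counts of the 32 genes. Against control vector the antigen-peptide transporter Tap1, which interferon also induces, rose by 2.44 (SE 0.37, adjusted p = 0.00486), the cytokine Lif by 2.44 (SE 0.25, adjusted p = 0.000944), the matrix protein Thbs1 by 1.49 (adjusted p = 0.0204) and the metalloreductase Steap3 by 1.29 (adjusted p = 0.0181). Lif read 53.5 to 94.0 in the wild-type line and 451 to 518 in the null line. It entered the test through the null line alone, so a fall could not have been seen for it. The fit without GFP and K278* was added after seeing the data and leaves LacZ as its only control array. The number that rose was 3 without the untransduced null array, 1 without the null GFP array, and 13 when GFP and K278* were dropped from the wild-type line. Of the 14 genes repressed through p21, 1 rose against control vector (7.14%, beside 10.2% of all genes) and 0 fell. It was the cyclin Ccnb2 (0.74, SE 0.17, adjusted p = 0.0233), a call lost without either null array (adjusted p = 0.122 and 0.138) and without LacZ (adjusted p = 0.0544). Over the lines Ccnb2 rose by 0.91, and Cdc25c and Cdc20, activators of mitotic entry and exit, fell by 0.57 and 0.55 (adjusted p = 0.0181 and 0.0263), so 1 rose and 2 fell beside 20.7% and 23.2% of all genes. The Cdc20 call was lost without any 1 of the 3 null-line arrays (adjusted p of 0.0538 to 0.104), and that of Cdc25c without the null GFP or the reconstituted array (adjusted p = 0.0768 and 0.0758).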

How the data were processed

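Per the labels' protocols, total RNA of 9 fibroblast samples was labelled by 3' in vitro transcription for Affymetrix mouse arrays. The authors deposited intensity values, linear MAS5 signals per the submitters' processing notes; for neither its version nor its scaling target is a value given in the sources used here. With 2% trimmed at both ends, every array averaged 500.0. Of 45037 probe sets that are not controls, 34945 carry 1 gene symbol in the platform annotation, 932 several, which were not used.

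Signals were analysed as log2(signal + 25), which understates changes of dim genes. Probe sets with a mean of at least 100 were tested (19090). The tests were limma 3.58.1 (R 4.3.3), all two-sided, with an intensity trend, 5 group means over the 9 arrays, and a second fit with 2 line means; p-values were adjusted by Benjamini-Hochberg over all probe sets, threshold 0.05. A count of genes takes 1 probe set per gene, and all-gene percentages are over 10177 genes. The procedure was tested on simulated data. The genes and lists were chosen with earlier results of these data known, and no set was tested as such.

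Full values are given for Mdm2, Mdm4, Cdkn1a and genes passing against control vector; elsewhere for up to 5 passing genes or the 3 smallest p, and for other lists up to 4. Probe sets are given singly where their calls differ. Alternatives were offsets of 5 and 100, a minimum of 200 or none, quantile normalization, no trend, compared arrays alone, all probe sets of a gene, and each array left out. For all probe sets of a gene, the mean change was given the adjusted p of the probe set with the smallest p, which favours a call. A fit without both GFP and K278* of the wild-type line was added after seeing the data.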

Additional observations from a re-analysis of the deposited data

Results flagged for a closer look

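The 6 wild-type-line arrays were examined for each of the 32 genes for an array far from the others, by the gap to its neighbour relative to the range (Dixon's 95% limit), and 3 genes had such an array. Chance flags about 1 in 20 such groups. Ddit4l, the mTOR inhibitor, read 96.1 on the Q1430* array, with the next at 77.7 and the lowest at 68.2; all of these were far below the null line. Dcxr, the reductase, read 522 on the GFP array, with the next at 989 and the highest at 1341. Apaf1, the apoptosome scaffold, read 874 on the same GFP array, with the next at 1046 and the highest at 1160. The low GFP values of Dcxr and Apaf1 enter the control group: without that array their rise in the null group was 1.23 (adjusted p = 0.003) and 0.53 (adjusted p = 0.0444).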

How the results depend on the processing

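No paired analysis was possible because the labels give no replicate numbers. In the null group against control vector the number of genes higher was 5 to 14 with single arrays left out (5 without either null array, 14 without GFP, 11 without LacZ) and the number lower was 0 to 0; leaving out the wild-type GFP and K278* arrays gave 17 and 1 (Tigar), and quantile normalization gave 2 lower (Bbc3 and Tigar). Over the lines the number higher was 15 to 19 with single arrays left out and the number lower 2 to 4 (4 without GFP, adding Ddb2 and Fas); a minimum of 200 gave 1 lower, and leaving out GFP and K278* gave 4. Other settings of these counts stayed within 1.5 times. Among them, the setting with all probe sets favours calls and so says little about whether they are stable. With truncated PREX2 against control vector, counts with arrays left out were 0 to 1 higher (Dcxr, without LacZ) and 0 lower, and the other comparisons within a line gave 0 under each alternative. Signs turned only for genes that were not called. In the null group against control vector, Rrm2b was 0.060 over all probe sets, Xpc -0.024 and Fas -0.18 without GFP and K278*, and Tnfrsf10b -0.095 and Pidd1 -0.14 by quantile normalization. With single arrays left out, Cdkn1a spanned -0.072 to 0.70, Rrm2b -0.15 to 0.009, Ddb2 -0.23 to 0.096, Xpc -0.024 to 0.58, Fas -0.18 to 0.35, Tnfrsf10b -0.13 to 0.23, Aen -0.48 to 0.59 and Pidd1 -0.34 to 0.36. Over the lines Rrm2b was 0.010 over all probe sets, and Tnfrsf10b was -0.002 with an offset of 100, -0.15 by quantile normalization and -0.15 to 0.12 with single arrays left out. The cause of these differences was not tested. Signals near the offset of 25 (Pmaip1 and Cdkn2a in the wild-type line, Thy1 in the null line) bear no order and no firm fold.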
